A study of Mus musculus with 12 samples.

Results

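Neurospheres, on 3 arrays, were set against embryonic radial glia, also on 3 arrays, all from C57Bl/6 mice. The neurospheres, floating clusters of cultured progenitors, were derived from ependymal cells of the adult spinal cord and are labelled as not sorted. The radial glia came straight from the embryonic forebrain on day 14.5, as cells that carried CD133 but lacked CD24, CD45 and CD34. The series has 12 Illumina mouse bead arrays in 4 groups of 3, and the other 6 arrays hold CD133 and CD24 positive ependymal cells from the lateral ventricle wall and the spinal cord of adults. A gene entered the comparison when a probe bearing its symbol had a detection p-value under 0.01 on at least 3 of the 6 arrays. This left 8480 genes of the 17711 named on the array, each read through the brightest of its qualifying probes. Age, region, culture and sorting all differ between the neurospheres and the radial glia, so their contributions cannot be told apart. Culture medium and passage number are not given in the sources used here.

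Radial glia line the ventricles of the embryonic brain, divide there, and give rise to neurons and later to glia. Neural progenitors keep a record of their position along the body axis in the transcription factors they express: Hox genes mark the hindbrain and spinal cord, and other homeobox genes mark the forebrain. In neurosphere culture, progenitors are usually driven to divide by growth factors that act through receptor kinases and the ERK pathway, whereas in the embryo Notch, BMP and Wnt signals hold radial glia in their progenitor state.

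Levels below are normalised log2 intensities, and a difference of 1 is a 2-fold change. Signals near 5 are background: the weakest detected probe lay between 5.06 and 6.00 on the neurosphere arrays and between 5.44 and 5.74 on the radial glia arrays. Differences are neurospheres minus radial glia with the standard error (SE) of the model, n = 3 arrays per group, and a gene was called when its limma p-value, adjusted by Benjamini-Hochberg over all 8480 genes, was under 0.05. Where no array of the lower group detected a gene, only a bound on the fold is given. In such bulk RNA, fewer cells of a type and less RNA per cell cannot be told apart.

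Neurosphere replicate 3 stood apart. Its mean raw signal was 654, against 199 and 248 on the other 2 neurosphere arrays and 360 to 375 on the radial glia arrays, and it detected 16175 probes, against 11434 and 11674. Over the genes tested it correlated with neurosphere replicates 1 and 2 at r = 0.874 and 0.842, while these correlated with each other at 0.968, radial glia arrays with each other at 0.940 to 0.964, and neurosphere with radial glia arrays at 0.690 to 0.767. In 830 genes it lay more than 2 log2 units from the mean of the other neurosphere arrays, and replicates 1 and 2 lay that far apart in 79 genes.

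Of the 8480 genes, 901 were higher in neurospheres (10.6%) and 1103 were lower (13%), so that 2004 (23.6%) differed. The median difference over all genes was -0.07. Without neurosphere replicate 3 the counts were 1225 higher and 1770 lower, and without replicate 1 they were 597 and 739. A gene detected in 1 group alone passed the detection filter through that group. Of the genes detected on all 3 neurosphere arrays and 0 radial glia arrays, 189 were called higher and 68 were not called. Of those detected the other way round, 289 were called lower and 26 were not. Among the 6102 genes detected on all 6 arrays, 564 were higher (9.24%) and 484 were lower (7.93%).

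**Figure D1:**
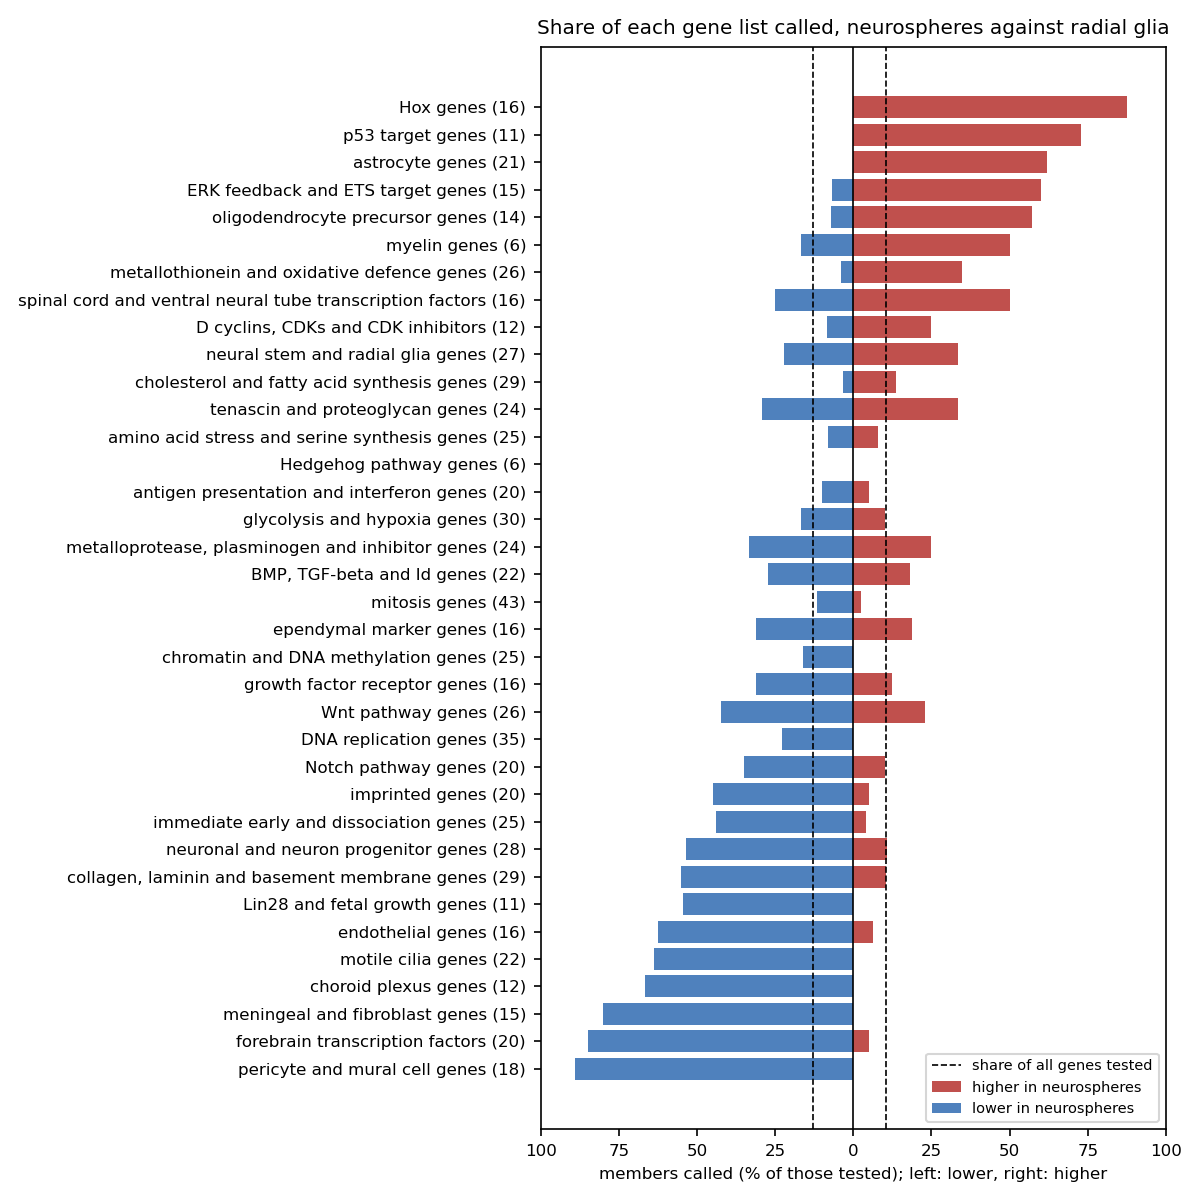
Share of the tested members of each gene list that were called higher (red, to the right) or lower (blue, to the left) in neurospheres than in radial glia, for lists with at least 6 genes tested (number in brackets). Dashed lines mark the shares of all genes tested, 10.6% and 13%. Hox genes reach furthest right (14 of 16) and pericyte and mural cell genes furthest left (16 of 18).

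The gene of the sort antigen shared by all sorted cells was lower in the unsorted neurospheres. The sort selected the radial glia for CD133, the product of this gene, so its difference is not independent of the sort. Prom1, which encodes CD133, had log2 levels of 9.44, 9.82 and 8.94 in neurospheres, against 13.46, 13.64 and 13.42 in radial glia, so the groups did not overlap and the difference was -4.10 ± 0.30 (adjusted p = 1.96e-06). Cd24a and Ptprc, which encode CD24 and CD45, were detected on 0 arrays of either group, and Cd34 on 1 neurosphere and 0 radial glia arrays. Cd24a has 1 probe, which detected it on 1 spinal cord and 3 lateral ventricle arrays of the CD24 positive ependymal cells. The label of the sorted cells was then checked against radial glia genes. Vim, an intermediate filament gene of neural progenitors, was high everywhere (14.17, 13.91 and 14.32 in neurospheres, against 13.93, 14.02 and 14.06 in radial glia). Pax6, Hes1, Hes5 and Nes were detected on all 3 radial glia arrays. Other markers were not: the radial glia arrays detected Fabp7, which encodes the brain fatty acid binding protein, on 0 arrays, Ptprz1 on 0, Sox1 on 0 and Sox2 on 1, through 1 kept probe or none for each gene. These 4 genes were singled out after their values were seen, as were the endothelial and astrocyte markers given as undetected below.

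Genes of vessel walls, meninges and choroid plexus made up many of the largest differences, all lower in neurospheres. Of 18 pericyte and mural cell genes tested (23 on the array), 16 were lower and 0 higher. Their mean log2 level was 5.76, 5.47 and 5.64 on the neurosphere arrays, which is near background, against 10.78, 9.90 and 10.44 on the radial glia arrays. Vtn, a matrix protein gene of pericytes, had 4.66, 4.70 and 4.64 in neurospheres, against 13.86, 13.17 and 13.84 in radial glia, and was at least 250-fold lower (adjusted p = 6.18e-09). Kcnj8, a potassium channel gene of pericytes, had 4.60, 4.62 and 4.64 in neurospheres, against 12.53, 12.29 and 12.26 in radial glia, and was at least 104-fold lower. Foxs1, a forkhead factor of mural cells, was at least 132-fold lower, and Pdgfrb, the receptor by which pericytes are recruited, at least 70.0-fold. No array of neurospheres detected Vtn, Kcnj8, Foxs1 or Pdgfrb, and every radial glia array did. Without neurosphere replicate 3, 15 mural genes were lower. Of the 18 tested, 11 were detected on 3 radial glia and 0 neurosphere arrays and passed the filter through radial glia. Among the 4 detected on all 6 arrays, 3 were lower and 0 higher.

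Endothelial, meningeal and choroid plexus genes were mostly lower too. Of 16 endothelial genes, 10 were lower and 1 higher, with mean levels of 5.75, 5.93 and 6.25 in neurospheres, against 8.76, 8.12 and 8.65 in radial glia. Esam, an adhesion molecule of endothelium, was at least 110-fold lower and the forkhead gene Foxq1 at least 34.7-fold, and Emcn, an endothelial sialomucin gene, was lower by -5.59 ± 0.35. Cd93 was the exception, at 8.48, 9.25 and 8.67 in neurospheres, against 5.99, 5.50 and 6.63 in radial glia. Pecam1, a widely used endothelial marker, was detected on 0 arrays of either group, and Cldn5, a tight junction gene, on 1 of each. Of 15 meningeal and fibroblast genes, 12 were lower and 0 higher; Col3a1, a fibrillar collagen gene, was at least 12.7-fold lower and Foxd1 at least 5.43-fold. Of 12 choroid plexus genes, 8 were lower and 0 higher. Ttr, the thyroid hormone carrier that choroid plexus epithelium secretes, had 5.67, 4.66 and 4.81 in neurospheres, against 13.81, 13.80 and 13.90 in radial glia, at least 289-fold lower, and the chloride channel gene Clic6 was lower by -6.51 ± 0.72. Zic1, at least 41.3-fold lower, is counted in the mural and the meningeal lists and Tbx18 likewise. Among these lists, 7 endothelial, 8 meningeal and 5 choroid plexus genes were detected on 3 radial glia and 0 neurosphere arrays. They passed the filter through radial glia. On all 6 arrays, 2 endothelial, 0 meningeal and 2 choroid plexus genes were detected, of which 1 endothelial and 1 choroid plexus gene were lower. Of 25 leukocyte genes on the array, 2 passed the filter. The part that other cell types among the sorted cells have in these signals was not tested.

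**Figure D2:**
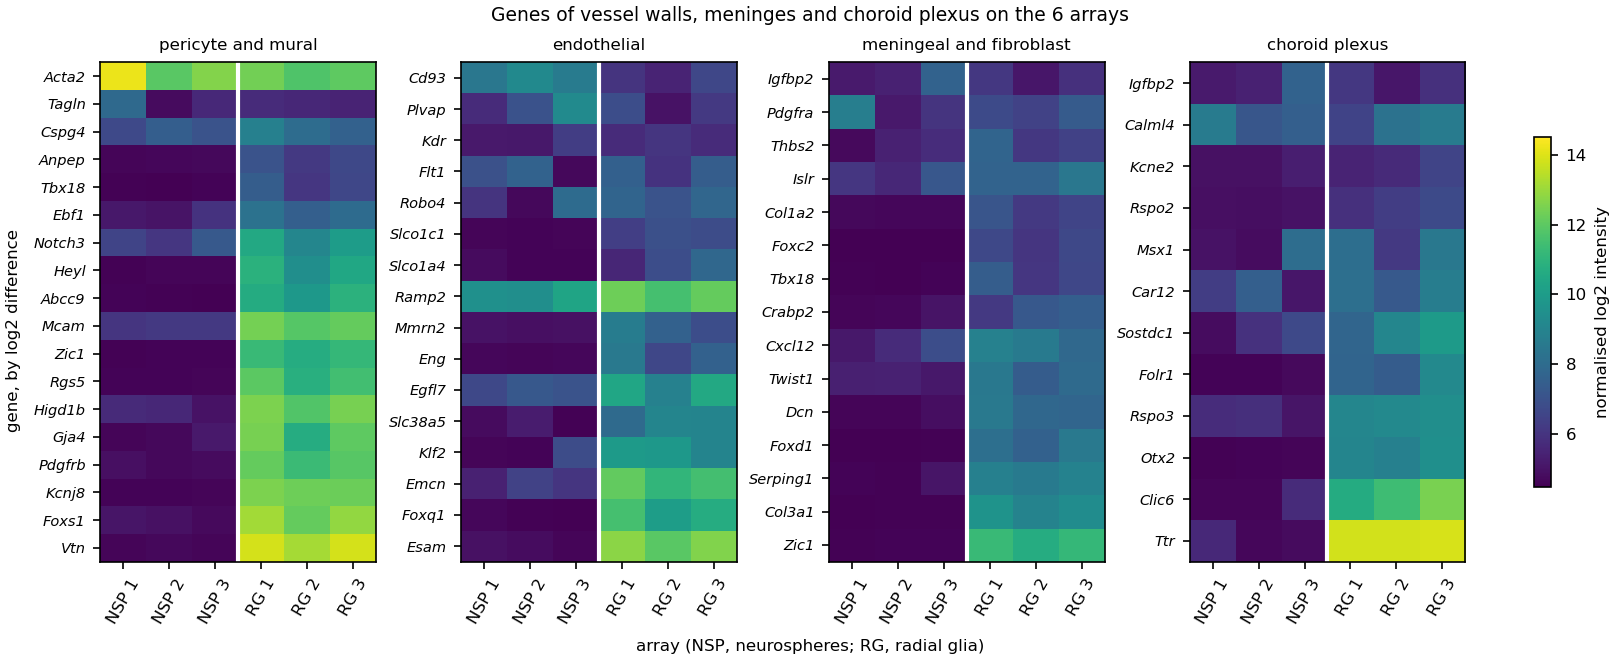
Normalised log2 intensity (colour) of every tested gene of 4 lists on the neurosphere arrays (NSP, left of the white line) and the radial glia arrays (RG, right), ordered by log2 difference. Most rows are at background on all 3 neurosphere arrays and bright on all 3 radial glia arrays, and Ttr, Vtn, Foxs1 and Kcnj8 are among the brightest.

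Regional transcription factors separated the groups in opposite directions. Of 16 Hox genes tested (37 on the array), 14 were higher in neurospheres and 0 were lower, with a median difference of 5.28, or 4.25 with undetected genes at their bounds. The mean level of the 16 was 9.70, 9.77 and 9.03 on the neurosphere arrays, against 4.89, 4.95 and 4.90 on the radial glia arrays. Hoxa7 had 13.09, 13.27 and 12.81 in neurospheres, against 4.74, 4.63 and 4.65 in radial glia, at least 177-fold higher (adjusted p = 3.5e-09). Hoxa5 was at least 140-fold, Hoxc6 at least 78.8-fold and Hoxb7 at least 65.0-fold higher. These genes pattern the cervical and thoracic levels of the trunk, and 13 of the 14 called, Hoxb4 being the exception, were detected on 0 radial glia arrays and passed the filter through neurospheres. Spinal cord ependymal cells, the source of the culture, had Hoxa7 at a mean of 13.58 and Hoxa5 at 12.63, and the 14 Hox calls were the same in number without neurosphere replicate 3. Hoxa10, which marks more posterior levels, was detected on 0 arrays of either group and on 0 spinal cord ependymal arrays. Among other posterior genes, Hoxa11, Hoxb13, Hoxc10 and Hoxd10 were each detected on 1 neurosphere and 0 radial glia arrays. Hoxc11, Hoxc12, Hoxc13, Hoxd11, Hoxd12 and Hoxd13 were detected on 0 arrays of either group. Spinal cord ependymal cells had Hoxb13 and Hoxd10 detected on 3 arrays.

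Forebrain factors ran the other way: of 20 tested (29 on the array), 17 were lower in neurospheres and 1 was higher. The median was -3.45, or -3.10 with undetected genes at their bounds. Of the 20, 12 were detected on 3 radial glia and 0 neurosphere arrays and passed the filter through radial glia. Among the 5 detected on all 6 arrays, 3 were lower and 1 was higher. Fezf2, which specifies deep-layer cortical projection neurons, had 4.59, 4.68 and 4.60 in neurospheres, against 12.97, 12.99 and 12.61 in radial glia, and was at least 147-fold lower. Tfap2c, a factor of cortical progenitors, was at least 133-fold lower, and Otx1, a homeobox gene of the forebrain and midbrain, at least 112-fold. No neurosphere array detected these 3 genes. Dmrt3, a factor of the dorsal telencephalon, was at least 24.2-fold lower. Ventral telencephalic factors were detected in radial glia too: Dlx2 was at least 8.38-fold and Nkx2-1 at least 11.3-fold lower in neurospheres. Lmo4, a LIM-domain cofactor, was the gene that was higher (12.58, 12.71 and 11.62 in neurospheres, against 8.76, 10.25 and 10.64 in radial glia).

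Spinal and ventral neural tube factors were mixed, with 8 of 16 higher and 4 lower. Nkx2-2, a ventral progenitor factor, had 8.68, 8.91 and 8.04 in neurospheres and was undetected in radial glia, at least 7.74-fold higher. Irx5 was higher by 3.67 ± 0.75 and Nkx6-1, which radial glia replicate 2 had at 6.10 and the others at 8.23 and 7.91, by 1.95 ± 0.52. Dorsal or boundary genes were lower: Zic1 is given above, Dbx1, which marks progenitors at the middle of the neural tube and the edge of the pallium, was at least 18.7-fold lower, and Zic4 was lower by -2.56 ± 0.39. Genes of the spinal list were thus not uniformly higher in the cells of spinal origin.

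**Figure D3:**
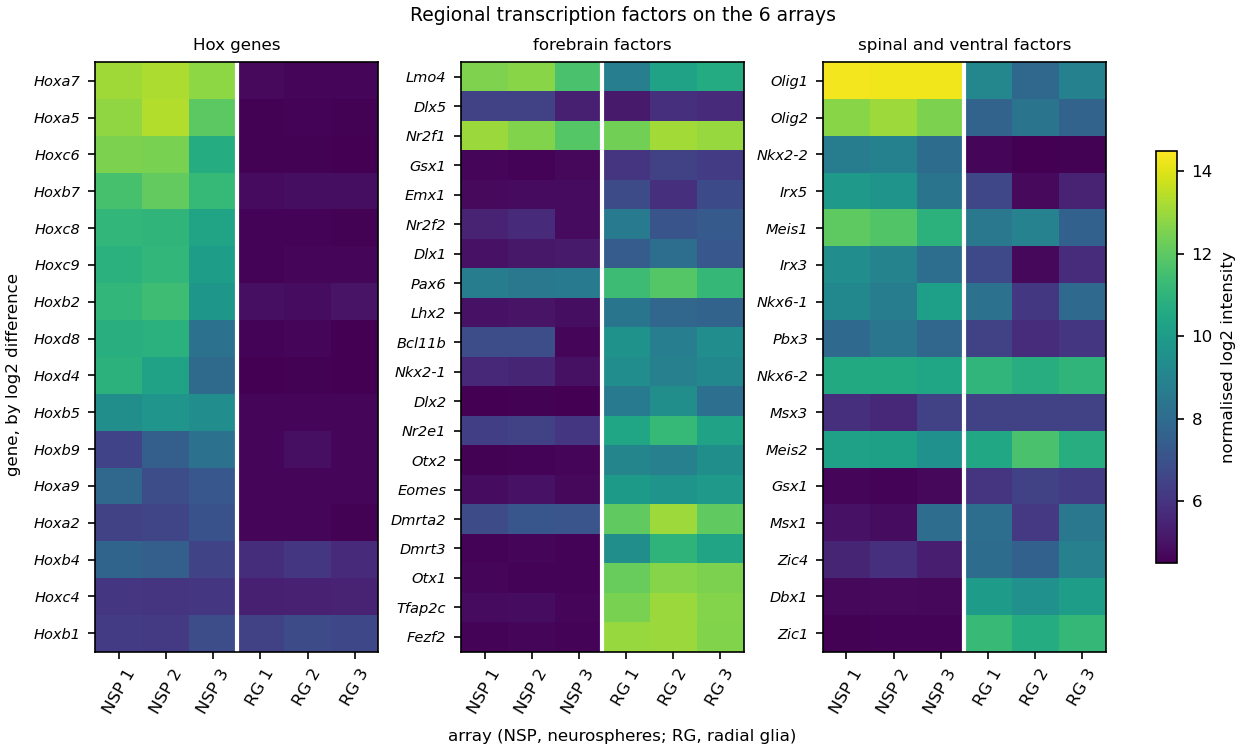
Normalised log2 intensity (colour) of the tested genes of 3 lists of regional transcription factors on the neurosphere arrays (NSP, left of the white line) and the radial glia arrays (RG, right), ordered by log2 difference. Most Hox genes are bright on the neurosphere side and at background on the radial glia side, but every radial glia array detected Hoxb1 and Hoxb4. Forebrain factors are brighter on the radial glia side apart from Lmo4, Dlx5 and Nr2f1, and the spinal and ventral list is mixed.

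Many astrocyte and oligodendrocyte precursor genes were higher in neurospheres than in radial glia. Of 21 astrocyte genes tested, 13 were higher and 0 were lower, with a median of 1.98. The list mean was 10.41, 9.48 and 10.37 in neurospheres, against 8.31, 8.23 and 7.95 in radial glia. It was 9.36 to 9.95 in spinal cord and 10.37 to 10.61 in lateral ventricle ependymal cells. Slc1a3, the glutamate transporter GLAST, was at 13.84, 13.78 and 13.96 in neurospheres, against 11.07, 11.65 and 11.05 in radial glia, a difference of 2.60 ± 0.31 (adjusted p = 9.94e-05). Gja1, the gap junction gene of astrocytes, had 12.86, 12.54 and 12.80 in neurospheres, against 10.07, 9.62 and 9.75 in radial glia. Both genes were also high in every spinal cord ependymal array. Ntsr2, a neurotensin receptor, was at least 9.08-fold higher, Mlc1, a membrane protein of astrocyte end-feet, at least 6.62-fold, and Aqp4, the water channel of the same structures, at least 4.07-fold. Every ependymal array of either group also detected Ntsr2, Mlc1 and Aqp4. Glul, which encodes glutamine synthetase, was higher by 3.15 ± 0.56. The intermediate filament gene Gfap, the usual marker of reactive and mature astrocytes, was detected on 0 neurosphere and 0 radial glia arrays but on 3 arrays of each ependymal group. Slc1a2, the second glial glutamate transporter, was higher by 5.38 ± 1.51 but was no longer called without radial glia replicate 2 or 3 or neurosphere replicate 1 (adjusted p up to 0.0891), and radial glia replicate 1 alone of its group detected it.

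Oligodendrocyte precursor genes were higher for 8 of 14 tested and lower for 1. The lower one was Cspg4 (-1.09 ± 0.36), whose call was lost without radial glia replicate 1 or 2 or neurosphere replicate 1 or 3 (adjusted p = 0.0564 to 0.177). Olig2, the factor that starts this lineage, had 12.72, 13.03 and 12.52 in neurospheres, against 7.68, 8.37 and 7.69 in radial glia, a difference of 4.84 ± 0.49 (adjusted p = 2.75e-05). Its neighbour Olig1 had 14.33, 14.30 and 14.28 in neurospheres, against 9.15, 7.84 and 8.88 in radial glia. Its standard error was 1.58; the spinal cord ependymal arrays, which share the estimate of spread, ran from 4.69 to 12.09. The call was lost with any radial glia array or neurosphere replicate 1 or 2 left out (adjusted p 0.0544 to 0.0729). Bcan, a proteoglycan gene, was higher by 4.56 ± 0.91 with uneven neurosphere levels of 9.21, 8.05 and 12.66. Sox6 (-0.03 ± 0.29, adjusted p = 0.954) and Pdgfra were among the 5 precursor genes not called. With single arrays left out, the Pdgfra difference ran from -1.28 to 0.53. Sox10, detected on 2 neurosphere and 0 radial glia arrays, was not tested. Of 18 myelin genes on the array, 6 were tested, of which 3 were higher, 1 was lower and 2 were not called. The lower gene was Mbp, myelin basic protein, at least 3.58-fold in the probe used. Cnp, an enzyme of myelinating cells, had 8.56, 7.77 and 8.53 in neurospheres, against 6.14, 6.17 and 5.91 in radial glia (2.21 ± 0.32). Cryab, a small heat shock protein, was higher by 1.79 ± 0.46 (adjusted p = 0.0155), and this call was lost without radial glia replicate 2 or neurosphere replicate 1 (adjusted p = 0.0628 and 0.0614). Bcas1, a gene of early myelinating cells, was higher by 6.50 ± 0.66 (12.14, 11.32 and 11.20 in neurospheres, against 5.75, 4.54 and 4.86 in radial glia). Every spinal cord ependymal array detected Bcas1, Cnp and Cryab, at means of 10.80, 8.73 and 11.65. Olig2 and Bcan had means of 5.81 and 5.69 on those arrays.

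Genes of neural stem cells split. Of 27 tested, 9 were higher in neurospheres and 6 were lower. Prom1, the gene of the sort antigen CD133, is among the 6. Fabp7 had 8.06, 8.50 and 7.04 in neurospheres and was at least 4.84-fold higher, and Tnc, which encodes the matrix protein tenascin C, was higher by 3.23 ± 0.31. Hes5 and Hes1, which Notch induces, were lower: Hes5 had 4.99, 4.72 and 5.29 in neurospheres, against 9.74, 8.64 and 9.70 in radial glia. Nr2e1, an orphan receptor that keeps forebrain stem cells dividing, was lower by -4.30 ± 0.41. Sox9 was higher by 1.35 ± 0.34, and Sox2 (1.55 ± 0.62, adjusted p = 0.0945) and Nes (-1.29 ± 0.79, adjusted p = 0.264) did not pass. Nes levels were 6.97, 6.90 and 9.75 in neurospheres, against 9.61, 8.87 and 9.02 in radial glia, so neurosphere replicate 3 lay above the radial glia arrays and the other neurosphere arrays below them.

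**Figure D4:**
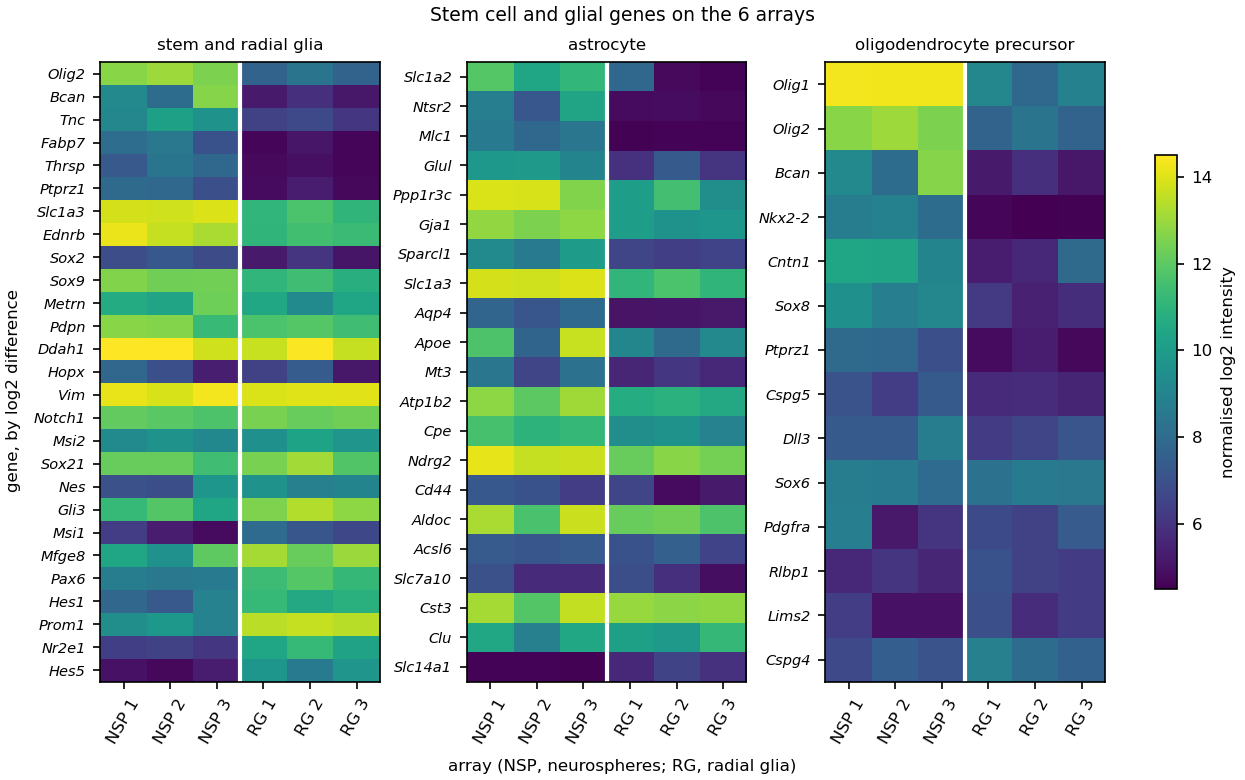
Normalised log2 intensity (colour) of the tested genes of 3 lists on the neurosphere arrays (NSP, left of the white line) and the radial glia arrays (RG, right), ordered by log2 difference. The top rows of the astrocyte and oligodendrocyte precursor panels are brighter on all 3 neurosphere arrays, and Hes5, Nr2e1 and Prom1 at the foot of the stem cell panel are brighter on all 3 radial glia arrays.

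Genes of the neuronal lineage were mostly lower in neurospheres, 15 of 28 tested against 3 higher. Neurod2, a factor of cortical excitatory neurons, had 4.71, 4.75 and 4.72 in neurospheres, against 10.67, 10.20 and 10.43 in radial glia, at least 27.3-fold lower. Eomes, which marks intermediate progenitors, was at least 18.2-fold lower, Neurog2, which commits progenitors to the excitatory fate, at least 14.9-fold, and Slc17a6, a vesicular glutamate transporter, at least 8.65-fold. No neurosphere array detected these 4 genes. Of the 28 tested, 7 were detected on 3 radial glia and 0 neurosphere arrays and passed the filter through radial glia. Among the 12 detected on all 6 arrays, 4 were lower and 1 was higher. The 3 genes higher in neurospheres, Snap25, Mapt and Gad2, fell to 0 called when neurosphere replicate 1 or radial glia replicate 1 was left out. Tubb3, a tubulin of young neurons, was not called (0.02 ± 0.27, adjusted p = 0.975).

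Cell cycle genes were detected in both groups, and some were lower in neurospheres. Of 35 DNA replication genes tested, 8 were lower and 0 higher, and of 43 mitosis genes 5 were lower and 1 was higher. The share of mitosis genes lower lay below the 13% of all genes tested. The median differences of the replication and mitosis lists were -1.01 and -0.99. The mean level of the replication list was 8.40, 9.64 and 9.34 on the neurosphere arrays, against 10.23, 10.40 and 10.12 on the radial glia arrays, so neurosphere replicate 1 was the lowest of the 6. The mitosis list had 8.19, 9.89 and 8.81 in neurospheres, against 9.71, 10.02 and 9.68 in radial glia, and here neurosphere replicate 2 lay within the range of the radial glia. Spinal cord ependymal cells, from which the culture came, had means of 7.67 to 7.84 for replication and 6.80 to 7.55 for mitosis. Chaf1a, a histone chaperone that works at the fork, had 6.09, 7.05 and 8.28 in neurospheres, against 9.87, 9.79 and 9.71 in radial glia (-2.66 ± 0.46, adjusted p = 0.00142). E2f1, which drives entry into S phase, was lower by -2.18 ± 0.46. Tyms, which makes thymidylate, was lower by -2.05 ± 0.46 in its brightest probe, and of its other 2 probes 1 had -2.01 (adjusted p = 0.00784) and 1 had 0.13 (adjusted p = 0.813). Birc5, which encodes survivin of the chromosomal passenger complex, was lower by -2.64 ± 0.46. Pttg1, securin, was the gene that was higher (11.22, 10.97 and 10.29 in neurospheres, against 8.58, 9.26 and 8.90 in radial glia). In spinal cord ependymal cells, mean levels were 9.77 for Chaf1a, 9.49 for E2f1, 5.37 for Tyms, 5.09 for Birc5 and 10.93 for Pttg1.

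These counts depended on single arrays. The replication count was 13 without neurosphere replicate 3. The mitosis count was 1 without neurosphere replicate 1, 8 without replicate 2 or 3, and 3 without radial glia replicate 1 or 3. With the authors' processed values 12 replication and 11 mitosis genes were lower.

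Inhibitors of cyclin-dependent kinases differed in both directions, with 3 of 12 D cyclin, CDK and inhibitor genes higher and 1 lower. Cdkn1a, which encodes p21, had 11.04, 11.17 and 10.91 in neurospheres, against 6.58, 6.75 and 6.47 in radial glia, a difference of 4.44 ± 0.45 (adjusted p = 2.77e-05). Spinal cord and lateral ventricle ependymal cells had Cdkn1a at means of 10.39 and 9.99. Cdkn2b, which encodes p15, was higher by 4.78 ± 0.81. Cdkn2a, the Ink4a and Arf locus, had 7.46, 7.09 and 9.49 in neurospheres and was detected on 0 arrays of radial glia and of either ependymal group, at least 5.35-fold higher. Cdkn1c, the imprinted gene of p57, ran the other way, with 8.93, 8.83 and 9.99 in neurospheres, against 14.02, 14.04 and 14.27 in radial glia (-4.86 ± 0.71). Of 11 p53 target genes tested, 8 were higher and 0 were lower, with a median of 1.57; Cdkn1a is one of them. Eda2r, a receptor of the tumour necrosis factor receptor family, was at least 8.29-fold higher, Plk2 was higher by 3.20 ± 0.40 and Ccng1 by 2.30 ± 0.40. Spinal cord ependymal means were 5.48 for Eda2r, 5.66 for Plk2 and 10.77 for Ccng1. The count was 5 without radial glia replicate 1 or without neurosphere replicate 1 or 2, and 9 without neurosphere replicate 3.

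**Figure D5:**
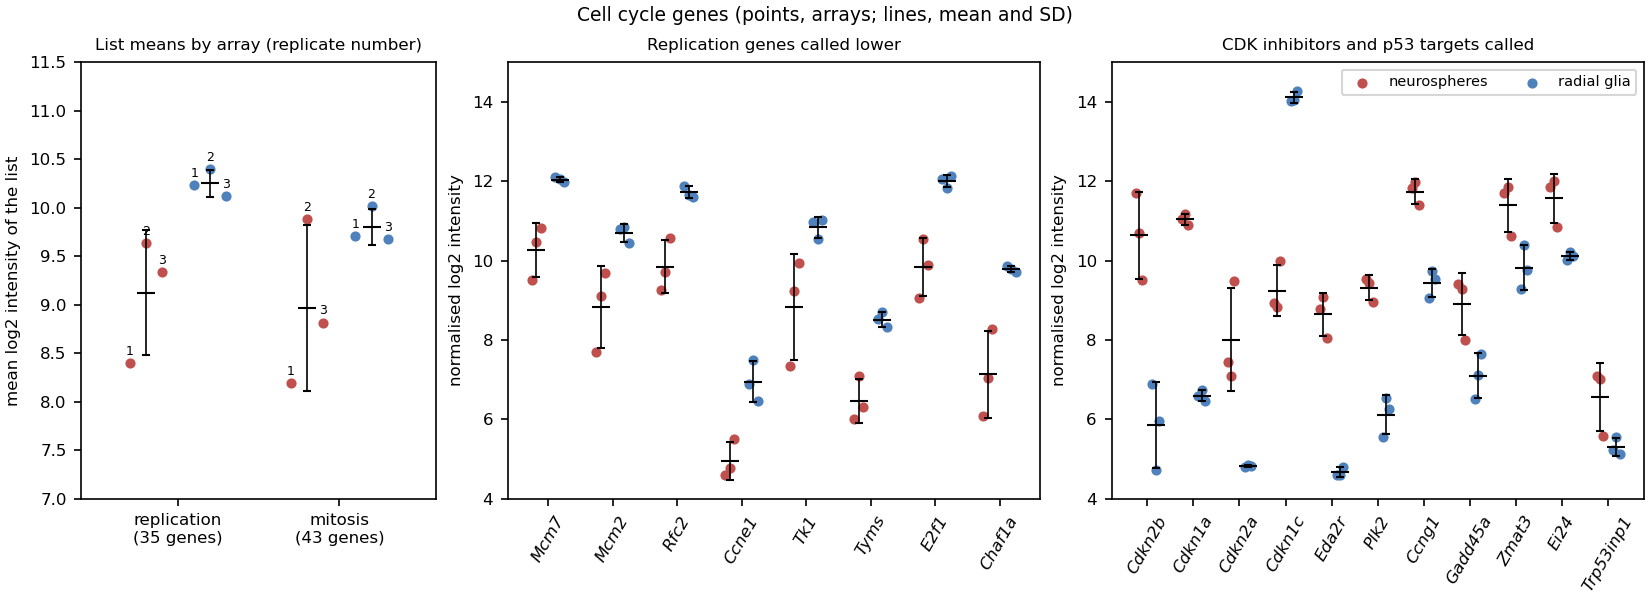
Left, mean log2 intensity of the 35 DNA replication and 43 mitosis genes on each array, with the replicate number above each point. Middle and right, log2 intensity of the replication genes called lower and of the CDK inhibitors and p53 targets called, with neurospheres (red) left of radial glia (blue) for each gene. Points are arrays and black lines the mean and SD of 3 arrays. Neurosphere replicate 1 has the lowest list means, and Cdkn1a and Cdkn1c separate the groups in opposite directions.

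Promoter windows of the replication genes were searched for the E2F motif TTTGGCGC or TTTCGCGC on both strands, as E2F factors are the textbook regulators of S phase genes. The windows are those of RefSeq for GRCm38.p6 and run from 250 bases before to 50 bases after each transcript start. A gene was counted when any of its windows held a match. The shares of all windows count each window once, so they are not on the same footing as the gene counts. Of the 8 replication genes called lower, 7 had a window and 1, Mcm7, held the motif. Of the 27 not called, 23 had a window and 7 held it, against 0.813% of all 32851 windows. The CHR element TTTGAA, a short motif of mitotic promoters, was in 2 of the 3 windowed mitosis genes called lower, in 21 of 29 not called, and in 17.9% of all windows. Mcm7, a subunit of the replicative helicase, had 9.51, 10.46 and 10.82 in neurospheres, against 12.10, 12.05 and 11.98 in radial glia (-1.78 ± 0.34, adjusted p = 0.00276). Its site is shown because it was the single match among the genes called. The stretch lies on the minus strand at chr5:138171840-138171887. The motif, in capitals, begins 17 bases from the transcript start and overlaps a CCAAT box.
Mcm7: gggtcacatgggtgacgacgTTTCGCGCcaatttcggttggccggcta

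The EGF receptor gene and many targets of ERK signalling were higher in neurospheres. Egfr, the receptor for EGF, had 10.98, 10.82 and 11.08 in neurospheres, against 8.14, 7.14 and 7.92 in radial glia (3.22 ± 0.43, adjusted p = 0.000261). Of 15 ERK feedback and ETS target genes tested, 9 were higher and 1 was lower, with a median of 1.55. Etv5, an ETS factor induced by FGF signalling, had 10.48, 10.12 and 9.89 in neurospheres, against 6.28, 6.07 and 5.61 in radial glia, higher by 4.18 ± 0.28 (adjusted p = 9.04e-07). Dusp4, an ERK phosphatase, was higher by 2.66 ± 0.53. Dusp6, another, was higher by 2.80 ± 0.77, and its call was lost without radial glia replicate 2 or 3 or neurosphere replicate 1 or 2 (adjusted p up to 0.0895). Phlda1 was lower by -2.56 ± 0.61. Among 16 growth factor receptors tested, 2 were higher, Egfr and the neurotrophin receptor gene Ntrk2, and 5 were lower, or 3 without neurosphere replicate 2. The share higher, 12.5%, was near the 10.6% of all genes tested, and the share lower was 31.2%, against 13%. Pdgfrb is given with the mural genes. Ngfr, the low-affinity neurotrophin receptor, was at least 44.4-fold lower, and the stem cell factor receptor gene Kit was lower by -4.58 ± 0.43.

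Notch pathway genes were lower for 7 of 20 tested and higher for 2. Hes5 and Hes1 are given above. Mfng, a glycosyltransferase that modifies Notch receptors, had 5.71, 6.85 and 5.86 in neurospheres, against 11.19, 11.29 and 11.60 in radial glia, lower by -5.22 ± 0.47. Heyl was at least 24.2-fold lower and Notch3 was lower by -3.25 ± 0.40, and both are also in the mural list. The ligand gene Dner was higher, with 13.18, 13.10 and 11.85 in neurospheres, against 8.45, 9.08 and 9.27 in radial glia. Dtx1 was higher by 2.35 ± 0.62, but lost its call (adjusted p = 0.059) when radial glia replicate 1 was left out.

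In the BMP and TGF-beta list, 6 of 22 genes were lower and 4 higher. Id4, an inhibitor of basic helix-loop-helix factors, had 5.01, 4.60 and 4.76 in neurospheres, against 10.03, 10.25 and 9.81 in radial glia, at least 20.6-fold lower, and it was detected on all 6 ependymal arrays. Bmp4 was at least 13-fold lower. The receptor gene Bmpr1b was higher by 3.04 ± 0.52. The count of higher genes was 1 without radial glia replicate 3 or neurosphere replicate 1 or 2, and 2 without radial glia replicate 1.

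Of 26 Wnt pathway genes, 11 were lower and 6 higher, and the higher count was 2 without radial glia replicate 1 or 3 or neurosphere replicate 1 or 2. The secreted inhibitor gene Sfrp1 had 5.31, 5.58 and 6.65 in neurospheres, against 12.63, 12.67 and 11.99 in radial glia (-6.58 ± 0.56), and Dkk3 was lower by -6.04 ± 0.49. Rspo3, a Wnt enhancer that is also in the choroid plexus list, was at least 12-fold lower. Its receptor gene Lgr5 was higher, with 7.71, 7.85 and 8.91 in neurospheres and 0 radial glia arrays detecting it, at least 5.91-fold, and the Wnt binding inhibitor Wif1 was at least 2.62-fold higher. None of 6 Hedgehog pathway genes tested was called by limma. At an unadjusted p under 0.05 there were 2, the transcription factor gene Gli3 (-1.78 ± 0.74, adjusted p = 0.105) and the co-receptor gene Cdon (-1.73 ± 0.72, adjusted p = 0.105), and the receptor gene Ptch1 had a difference of 1.11 ± 0.58. Gli1 was detected on 0 arrays of either group.

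Of 11 fetal growth genes tested, 6 were lower in neurospheres and 0 higher. Igf2, a fetal growth factor, had 7.59, 5.13 and 4.70 in neurospheres, against 14.09, 14.16 and 14.04 in radial glia (-8.29 ± 0.91), and neurosphere replicate 1 was the array that detected it. Dlk1 had 10.42, 8.68 and 8.41 in neurospheres, against 14.13, 14.02 and 13.98 in radial glia (-4.87 ± 0.56). Igf2bp1, an RNA-binding protein of embryonic tissues, was at least 15.2-fold lower. Igf2bp3 was lower by -4.34 ± 0.78 in its brightest probe. Of its other 4 probes, 3 were also lower (-3.44, -2.63 and -2.83) and 1 had a difference of 0.64 (adjusted p = 0.536). Lin28a, the founding gene of this group, was detected on 0 arrays of either. Of 20 imprinted genes, 9 were lower, Igf2, Dlk1 and Cdkn1c among them, and 1 was higher: Nap1l5, at least 10.5-fold. Gnas was at least 16.9-fold lower in the probe used, and its other probes, detected on 1 neurosphere and 2 radial glia arrays, had differences of -0.87 and -1.10 that were not called. Dcn, which is also in the meningeal list, was at least 5.26-fold lower.

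Many genes of motile cilia were lower in neurospheres than in radial glia. Of 22 tested (38 on the array), 14 were lower and 0 higher. Their mean level was 7.16, 6.96 and 6.94 in neurospheres, against 8.33, 8.40 and 9.09 in radial glia, and between 11.98 and 12.10 in spinal cord ependymal cells. Tppp3, a tubulin-binding protein gene, had 4.72, 4.62 and 5.17 in neurospheres, against 9.32, 8.47 and 9.34 in radial glia (-4.20 ± 0.38). Tekt1, of the ciliary microtubules, was lower by -4.07 ± 0.45, and Ccno, a cyclin-like gene of multiciliated cells, by -3.71 ± 0.63. Radial glia replicate 3 had the highest levels of Tekt1 (10.29) and Ccno (12.05) in its group, and it also had the highest level of the choroid plexus gene Clic6 (12.50). The mean of the choroid plexus list was 5.43, 5.42 and 5.87 in neurospheres, against 8.20, 8.21 and 9.13 in radial glia, and its part in the ciliary difference was not tested. Foxj1, the master factor of motile cilia, was detected on 1 neurosphere and 3 radial glia arrays and was not called (-0.57 ± 0.41, adjusted p = 0.346). Of 16 genes of the wider ependymal marker list, 3 were higher (Gja1, Aqp4 and Nkx6-1) and 5 were lower, or 3 lower without radial glia replicate 2 or 3.

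Many basement membrane genes were lower in neurospheres. Of 29 collagen, laminin and basement membrane genes tested, 16 were lower and 3 higher. The basement membrane collagen gene Col4a2 had 9.61, 9.25 and 10.33 in neurospheres, against 14.51, 14.30 and 14.60 in radial glia (-4.74 ± 0.31, adjusted p = 7.55e-07), and Nid1, which links laminin to collagen, was lower by -4.60 ± 0.29. Col2a1 was at least 13.6-fold lower. The mural and endothelial list means given above were also lower in neurospheres, and the part of those cell types in the basement membrane differences was not tested. The lower count was 9 without radial glia replicate 1 and 10 without radial glia replicate 3 or neurosphere replicate 1, and the higher count was 1 without radial glia replicate 1 and 0 without replicate 2.

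Proteoglycan genes split: of 24 tenascin and proteoglycan genes, 8 were higher and 7 lower. Bcan and Tnc are given above. Hapln4, a link protein of the perineuronal matrix, was at least 4.54-fold higher, and Csgalnact1, which starts chondroitin chains, at least 5.65-fold. Bgn and Dcn, small proteoglycans of connective tissue, were at least 78.7-fold and 5.26-fold lower. Among 24 protease and inhibitor genes, 6 were higher and 8 lower. Mmp9, a gelatinase, had 5.48, 5.54 and 5.25 in neurospheres, against 13.63, 13.32 and 13.58 in radial glia (-8.09 ± 0.26, adjusted p = 3.81e-09), and 1 neurosphere array detected it. Timp4, an inhibitor of such enzymes, was at least 8.92-fold higher.

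Several detoxification genes were higher in neurospheres. Of 26 metallothionein and oxidative defence genes tested, 9 were higher and 1 lower, or 5 lower without neurosphere replicate 3. Aldh1a1, which makes retinoic acid, had 11.19, 10.59 and 11.77 in neurospheres, against 4.68, 4.64 and 4.67 in radial glia, at least 48.2-fold higher. The glutathione transferase gene Gstm1 had 13.63, 12.70 and 14.03 in neurospheres, against 8.11, 8.56 and 8.62 in radial glia (5.02 ± 0.35, adjusted p = 1.36e-06), and Gstt1 was higher by 4.90 ± 0.45. Gstm1 belongs to a family of near-identical copies, so its probe may read relatives as well. Akr1b8 was at least 4.33-fold lower.

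The metallothionein genes encode small metal-binding proteins. Mt1 had 14.30, 13.94 and 14.39 in neurospheres, against 12.69, 13.22 and 12.60 in radial glia (1.37 ± 0.27, adjusted p = 0.00331). Mt3, the brain form, was higher by 1.98 ± 0.51, and Mt2 had a difference of 1.50 ± 0.50 that did not pass (adjusted p = 0.05005). The metal response element TGCACNC or TGCGCNC, the known site of metal induction, was searched for on either strand. It was found in a RefSeq GRCm38.p6 window of each of Mt1, Mt2 and Mt3, and in 25.7% of all 32851 windows. As above, genes were counted by any window and the share by single windows. The stretches of both genes called are shown with the matches in capitals. That of Mt1 lies at chr8:94179046-94179135 and that of Mt3 at chr8:94152614-94152656, each on the plus strand. No match overlaps another motif that was searched, which were the E2F, CHR, CACGTG and CCAAT motifs.
Mt1: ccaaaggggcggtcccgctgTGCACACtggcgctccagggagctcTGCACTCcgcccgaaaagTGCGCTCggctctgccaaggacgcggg
Mt3: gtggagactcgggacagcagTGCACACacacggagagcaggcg

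Of 25 immediate early genes, which respond within minutes to stimuli that include tissue dissociation, 11 were lower in neurospheres, 1 was higher and 13 were not called. The higher gene was Ier3 (1.36 ± 0.38), whose call was lost without radial glia replicate 1 or 3 or neurosphere replicate 1 or 2 (adjusted p = 0.0554 to 0.0886). Junb had 4.87, 4.64 and 6.27 in neurospheres, against 9.76, 8.44 and 9.07 in radial glia (-3.83 ± 0.55). Gadd45g was lower by -4.84 ± 0.88, with neurosphere replicate 3 at 8.96 and the others at 5.15 and 4.80. The mean level of this list was 8.32, 7.98 and 8.20 in neurospheres, against 9.72, 9.74 and 9.39 in radial glia, and the freshly sorted spinal cord ependymal cells had 8.96 to 9.28. Sorting and origin straight from tissue are both shared by the radial glia and ependymal arrays and absent from the neurospheres, and their parts in this difference cannot be told apart.

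Of 30 glycolysis and hypoxia genes, 3 were higher and 5 lower, of 29 lipid synthesis genes 4 and 1, of 25 amino acid stress genes 2 and 2, and of 20 antigen presentation genes 1 and 2, beside 10.6% higher and 13% lower over all genes. These counts moved with single arrays, for example to 8 lower glycolysis genes and 6 lower amino acid stress genes without neurosphere replicate 3. Scd1, which desaturates fatty acids, was higher by 3.27 ± 0.52 (10.12, 10.96 and 11.17 in neurospheres, against 7.44, 7.47 and 7.52 in radial glia). Chac1, which breaks down glutathione, was higher by 4.37 ± 1.01, and H2-T23, a nonclassical class I gene, by 2.81 ± 0.37. Ankrd37, a hypoxia target, was at least 6.95-fold lower. Of 25 chromatin genes 4 were lower and 0 higher, with 10 lower without neurosphere replicate 3, and 1 without neurosphere replicate 1 or any radial glia array.

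Single genes outside these lists were among the largest differences. Camk2b, a subunit of a calcium-dependent kinase, averaged 13.68 in neurospheres and 4.58 in radial glia, with no overlap, at least 272-fold higher. Hs3st2, a heparan sulfate sulfotransferase, had 13.42, 12.81 and 12.88 in neurospheres and was at least 174-fold higher, and Myh8, a perinatal muscle myosin, was at least 48.9-fold higher. Hs3st2 and Myh8 were detected on 0 arrays of either ependymal group, while the ependymal arrays all detected Camk2b, the potassium channel gene Kcnc4 (at least 85.5-fold higher) and the receptor subunit gene Ramp1 (at least 81.2-fold). Brinp2, a neural gene that restrains the cell cycle, was higher by 6.83 ± 0.56 and the glutathione transferase gene Gstt3 by 6.62 ± 1.30. In the other direction, Rcsd1, which binds an actin capping protein, was at least 114-fold lower.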

How the data were processed

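RNA of 12 samples, 3 per group, was read on Illumina MouseWG-6 arrays after 2-round amplification, per the labels. The submitters' processing notes name BeadStudio and lumi. The deposited raw values are an intensity per probe, for 46632 probes, with a detection p-value beside each intensity per the file headers. The authors' normalised log2 values served as an alternative. Raw intensities went through neqc of limma 3.58.1 in R 4.3.3, which took the negative controls from the p-values, added 16, applied quantile normalisation over 12 arrays and returned log2 values. Probes without a gene symbol (16646) or with several (10) were not used. All 12 arrays were fitted in 4 groups (lmFit, eBayes), so that they share an estimate of spread, and the script was tested on simulated data. The labels call the arrays independent biological replicates. Same-numbered neurosphere and radial glia arrays had deviations correlated at -0.14, 0.34 and 0.15, so the numbers were not taken to pair them.

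The gene lists and the genes described were chosen with earlier results of these data known. The genes named are those with the largest called differences, up to 4 per list and direction whose groups do not overlap, the sort antigens and the brightest markers. Others, such as Mcm7, the metallothionein genes, Sox2, Sox9, Nes, Pax6, Dlx2, Nkx2-1, Tubb3, Foxj1 and the Hedgehog genes, were chosen after their values were seen. The number of arrays limits the precision. Background correction, normalisation, probe choice, filters, fit and single arrays were varied.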

Additional observations from a re-analysis of the deposited data

How the results depend on the processing

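No call over all genes changed sign under the alternatives, apart from 1 gene when detection on all 6 arrays was required, which selects other probes. That filter left 490 genes higher and 406 lower in neurospheres, a test against a log2 difference over 1 left 284 and 399, and array weights gave 2294 and 2829. For members of the gene lists these settings gave 67 higher and 56 lower, 61 and 110, and 190 and 307. Leaving out an array in turn gave 597 to 1225 genes higher and 739 to 1770 lower; the lowest counts came without neurosphere replicate 1 and the highest without replicate 3. With a replicate block 809 genes were higher and 978 lower. Median scaling moved the median difference of all genes to 0.06, against -0.07, and gave 989 higher and 947 lower genes, so that 51.1% of calls were higher, against 45.0%; list differences within that shift of 0 have no settled direction. The cause of these differences was not tested. Of 208 named genes, 38 lost their call without some array. Genes near background give bounds on a fold.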
